A study of Mus musculus with 4 samples.

Results

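The Mediator complex carries signals from DNA-bound transcription factors to RNA polymerase II. Its subunits, among them those of the detachable kinase module built around Cdk8, were examined in the cytoplasmic RNA of Neuro2A cells depleted of the small noncoding RNA 4.5SH. Members were all probe sets whose annotation gave a single gene symbol that was Med followed by a digit, or Cdk8, Cdk19 or Ccnc. This gave 34 of the 18193 genes with such a symbol, at 73 of 45037 probe sets, of which 20 probe sets belonged to 7 genes of the kinase module, 52 to 26 other Mediator subunits and 1 to Med9os, a noncoding RNA that matched by its name alone. 1 further probe set, annotated to both Usp49 and Med20, was left out.

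Neuro2A is an established mouse neuroblastoma line, and every value comes from this 1 line. The arrays formed 2 groups, 2 of 4.5SH knockdown cells (KD) and 2 of control cells, called biological replicates in the labels. Antisense oligonucleotides were transfected at 30 nM with lipofectamine. What the controls were transfected with is not stated in the labels, so loss of 4.5SH and any other oligonucleotide effect cannot be told apart. The series set out to find genes with an antisense B1 element that 4.5SH acts on. No probe set was named for 4.5SH, so its level was not analysed here.

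Mediator consists of a head and a middle that contact the polymerase, a tail that many activators bind, and the scaffold subunit Med14 that joins them. The kinase module holds cyclin C (Ccnc), the cyclin-dependent kinase Cdk8 or its paralog Cdk19, Med12 or Med12l, and Med13 or Med13l. Med12 activates the kinase, Med13 tethers the module to the core, and a bound module hinders the core from binding the polymerase. The arrays measured the subunits' mRNAs in the cytoplasmic fraction, not the proteins or the complex.

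Signals are MAS5 intensities, which were compared between groups as log2(signal + 16). A fold change is the KD mean minus the control mean on that scale, a value after ± is its standard error from limma unless marked SD, and a probe set was called at a Benjamini-Hochberg adjusted p under 0.05 over all 22525 tested probe sets. Tested probe sets had a mean signal of at least 16.9 over the 4 arrays, which 57 of the 73 members reached. Only 2 of these, for Med1 and Med14, had a group mean below that level. The number of arrays limits the precision, and with 2 against 2 an exact permutation test cannot go below p = 0.333, so every p below depends on limma's pooling of variance over probe sets.

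Trimmed mean signals were 128 and 133 in KD and 149 and 144 in control arrays. Most tested probe sets read slightly lower in KD, with a median log2 fold change of -0.11 over all of them, -0.25 with spike-in scaling and 0.02 when arrays were centred on them. Marker genes were each taken at their brightest probe set. Of 13 sympathoadrenal and neuroblastoma marker genes 11 were above the filter, while Th and Gata3 were below it. All 13 together summed to 9164.5 to 9327.5 in KD and 10058 to 10177 in control. Among those called, Gata2 (-0.45), Ret (-0.27), Phox2a (-0.23) and Stmn2 (-0.17) fell, and only Chgb rose (0.33). Of 10 markers of other cell types 5 were above the filter and 5 (Ptprc, Col1a1, Col1a2, Cdh5 and Aqp4) below it, and all 10 summed to 212.4 to 254.7 in KD and 269 to 341.8 in control. The endothelial marker Pecam1 read 63.1 and 69.7 in KD, against 154.2 and 118.3 in control, and was the only one of them called (fell by 0.88 ± 0.15). The nuclear RNAs Malat1 and Neat1, each taken only at its brightest probe set, were lower in KD. Malat1, a long noncoding RNA retained in the nucleus, read 76.1 and 50.2 in KD, against 433.8 and 417.2 in control, and fell by 2.50 ± 0.15 (limma adjusted p = 9.75e-08). Neat1, the nuclear scaffold RNA of paraspeckles, read 22.8 and 12.9 in KD, against 41.2 and 37.2 in control, and fell by 0.72 ± 0.23 (limma adjusted p = 0.0243). These arrays are labelled cytoplasmic RNA, and less of these RNAs in the cells and less nuclear RNA in the fraction cannot be told apart here. The part of the array scale, of these markers and of nuclear RNA in any of the following results was not tested. In such bulk RNA, fewer cells of a type and less RNA per cell cannot be told apart.

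Cdk8 had the largest log2 fold change of the 57 tested members. Its only probe set, 1460389_at, read 477.8 and 441.1 in KD, against 145.2 and 123.9 in control. Both KD arrays thus lay above both control arrays by roughly the same margin. The log2 fold change was 1.66 ± 0.11 (limma adjusted p = 2.50e-07, 95% interval 1.42 to 1.90). Cdk8, the kinase of the module, lies on chromosome 5 at 146230795 to 146302874 in GRCm38.p6. It is represented by a single probe set, so no second measurement of the gene on these arrays could be set beside it. It kept its call in all 15 alternatives, with values between 1.40 and 1.82.

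Cdk19, the paralog that takes the place of Cdk8 in the module, was not called at either probe set. Probe set 1434997_at read 101.5 and 97.4 in KD and 97.8 and 99.6 in control, with overlapping groups. Its log2 fold change was 0.01 with a 95% interval of -0.28 to 0.30. Probe set 1455031_at read 159.9 and 143.4 in KD and 127.2 and 114.1 in control, without overlap, and differed by 0.29 (limma adjusted p = 0.09, 95% interval 0.02 to 0.57). Quantile scaling brought this one past the threshold, as did centring on the tested probe sets, at 0.43 in each. Spike-in scaling left it uncalled, at 0.15. Both intervals lay below that of Cdk8, but the difference between the paralogs was not itself tested.

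Ccnc, the cyclin that partners Cdk8 and Cdk19, had positive values at its 3 tested probe sets and was called at 1 of them. Probe set 1417861_at read 63.7 and 60 in KD, against 38.1 and 39.6 in control, a log2 fold change of 0.50 ± 0.17 (limma adjusted p = 0.0353). The brighter 1428570_at read 162 and 197.9 in KD and 142.3 and 138.4 in control. The KD arrays were again the higher ones, but the difference of 0.32 did not pass (limma adjusted p = 0.0654). Quantile scaling (0.47) and centring on the tested probe sets (0.45) each turned it into a call, while spike-in scaling (0.18) did not. Keeping only the brightest 25% of probe sets, or the brightest probe set of each gene, also gave a call (0.32 in each). Without KD replicate 1 the value was 0.45, and without KD replicate 2 it was 0.19. Probe set 1454144_a_at read 23.2 and 27.2 in KD and 15.7 and 23 in control and differed by 0.23. The call of 1417861_at ended with spike-in scaling, without a filter and when any of the 4 arrays was left out (0.47 to 0.54). The mean over the 3 tested probe sets of Ccnc was 0.35 and did not pass (limma adjusted p = 0.0586). Probe sets 1432754_at and 1454336_at stayed below the filter, with signals of 8.2 or less.

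Med13, the tether of the module, was called higher at 1 of its 5 probe sets. Probe set 1438725_at read 239 and 251.7 in KD, against 197.6 and 175.6 in control, a log2 fold change of 0.37 ± 0.11 (limma adjusted p = 0.0185). Probe set 1453160_at read 194 and 204.4 in KD and 201.8 and 150.7 in control. Its groups overlapped because of the first control array, and the difference of 0.18 did not pass. Probe set 1453161_at went the other way, with 16.5 and 18.2 in KD and 30.8 and 19 in control (-0.28, not called). The call of 1438725_at ended without KD replicate 1 (0.40), KD replicate 2 (0.33) or control replicate 2 (0.29), with spike-in scaling (0.23), without a filter and without an intensity trend. The mean over the 3 tested probe sets was 0.09 and did not pass (limma adjusted p = 0.614). The remaining 2 were below the filter: 1436904_at overlapped between groups, and 1444068_at read 5.1 and 12.9 in KD and 1.2 and 0.6 in control.

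Med13l, the paralog of Med13, read 227 and 246.1 in KD and 224.5 and 215.2 in control at its brighter probe set 1434603_at. The dimmer 1434602_at read 46.6 and 57.4 in KD and 44.6 and 32.4 in control. Neither difference passed (0.10 and 0.32), although the KD arrays were the higher ones at both. Quantile scaling brought 1434603_at to a call (0.27). With spike-in scaling 1434603_at was at -0.04 and 1434602_at at 0.18, neither called. The third probe set read 1.5 or less on every array. Med12, the activator of the kinase, had overlapping groups, with 293 and 313.3 in KD and 337.7 and 304.1 in control. Its log2 fold change of -0.08 had a 95% interval of -0.29 to 0.14. Med12l was not tested, as its 3 probe sets read between 0.5 and 6.9 on all arrays.

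**Figure D1:**
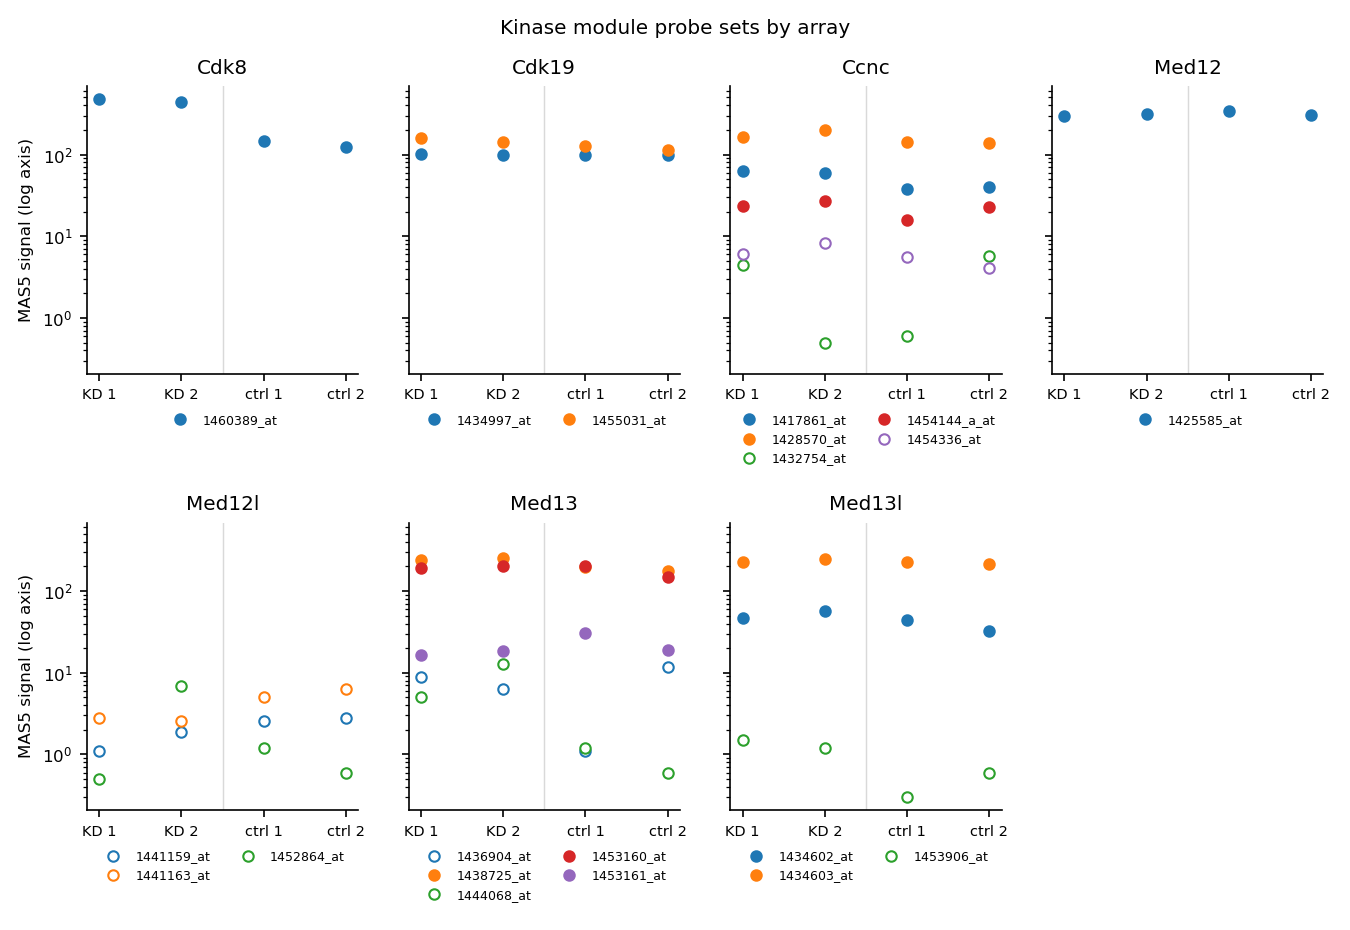
MAS5 signal (log axis) of the 20 kinase module probe sets on the 2 KD and 2 control arrays, 1 panel per gene, with filled points for probe sets that were tested and open points for those below the filter. Cdk8 reads 477.8 and 441.1 in KD and 145.2 and 123.9 in control, while the tested probe sets of the other 5 tested genes stay within a much narrower range between groups.

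The promoters of the 3 kinase module genes with a probe set called higher, Cdk8, Ccnc and Med13, are shown so that they can be compared. Each window runs from 250 bases before to 50 after a start site that the RefSeq promoter table (GRCm38.p6) used, and 29 of the 34 member genes had such windows. For Ccnc and Med13 this site is the end of the gene's annotated span. For Cdk8 it is base 146231250, which lies 455 bases inside the span given above, so that its window does not cover the outermost annotated start. Capitals mark matches to the searched motifs on either strand. The letters searched for the CCAAT box were CCAAT. Those of the E-box were CACGTG. The GC box was taken as GGGCGG. For the TATA box the letters were TATAAA. No searched motif contains another. The windows are chr5:146231000-146231299 on the plus strand for Cdk8, chr4:21727451-21727750 on the plus strand for Ccnc, and chr11:86357547-86357846 on the minus strand for Med13.
Cdk8: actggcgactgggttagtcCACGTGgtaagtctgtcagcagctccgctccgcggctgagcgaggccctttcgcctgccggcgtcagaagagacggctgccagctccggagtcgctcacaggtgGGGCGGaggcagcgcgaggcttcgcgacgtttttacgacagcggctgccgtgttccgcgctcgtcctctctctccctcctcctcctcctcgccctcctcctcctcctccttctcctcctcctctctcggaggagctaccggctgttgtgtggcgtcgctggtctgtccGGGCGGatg
Ccnc: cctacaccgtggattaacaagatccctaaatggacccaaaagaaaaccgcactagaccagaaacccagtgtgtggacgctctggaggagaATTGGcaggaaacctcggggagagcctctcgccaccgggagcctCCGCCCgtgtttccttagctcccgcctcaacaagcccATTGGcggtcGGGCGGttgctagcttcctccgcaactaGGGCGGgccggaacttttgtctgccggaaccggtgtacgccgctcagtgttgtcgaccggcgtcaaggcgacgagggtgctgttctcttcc
Med13: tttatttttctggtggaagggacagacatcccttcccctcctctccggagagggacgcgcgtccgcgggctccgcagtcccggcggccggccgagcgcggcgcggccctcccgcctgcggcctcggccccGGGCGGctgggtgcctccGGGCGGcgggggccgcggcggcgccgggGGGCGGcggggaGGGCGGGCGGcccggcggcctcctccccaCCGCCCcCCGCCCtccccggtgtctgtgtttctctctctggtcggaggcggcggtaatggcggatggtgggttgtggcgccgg

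The GC box was the only searched motif that these 3 windows shared, with 2 matches for Cdk8, 3 for Ccnc and 7 for Med13. It occurred in 35.7% of all 32851 promoter windows and in 21 of the 33 member windows. The CCAAT box matched 2 times for Ccnc, 0 times for Cdk8 and 0 times for Med13. It stood in 37.4% of all windows and in 12 of the 33 member windows. The E-box matched 1 time, for Cdk8, and stood in 7.15% of all windows and in 4 of the 33 member windows. The TATA box was not found in these 3 windows. It was present in 13.6% of all windows and in 3 of the 33 member windows. These matches describe letters in a window and were not linked to the signals.

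Counted over the module, 3 of 12 tested kinase module probe sets were called higher and 0 lower, and 9 did not pass. Over all tested probe sets 35.6% were called, 9.76% as higher and 25.8% as lower in KD. In the core, 3 of 44 tested probe sets were called higher and 15 lower, and 26 did not pass. The median log2 fold change was 0.26 for the kinase module, 0.23 without Cdk8, -0.21 for the core and -0.11 for all tested probe sets. Positive values stood at 10 of 12 kinase module probe sets and at 13 of 44 core probe sets, beside 8538 of all 22525 tested. The 12 kinase module probe sets belong to 6 genes. The groups did not overlap at 9 of 12 kinase module and 32 of 44 core probe sets, beside 66.9% of all tested probe sets. The core's share of lower calls, 34.1%, lay above the 25.8% of the whole array, and the module's 3 rises are a small number. No test of the difference between kinase module and core was made, nor of the part that the lower Malat1 and Neat1 had in either.

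Counts depended on single arrays and on scaling. Without KD replicate 2, or without control replicate 2, 1 kinase module probe set was called higher, and that was Cdk8 in each case. With spike-in scaling 1 of 12 kinase module probe sets was called higher and 23 of 44 core probe sets lower. All 22525 tested probe sets then gave 1042 higher and 8008 lower calls. Quantile scaling called 6 of 12 kinase module probe sets higher and 9 of 44 core probe sets lower. Over all tested probe sets it gave 3823 higher and 3758 lower calls. Kinase module medians were 0.12 and 0.36 under these 2 scalings and core medians -0.35 and -0.03, beside -0.25 and 0.00 for all tested probe sets.

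**Figure D2:**
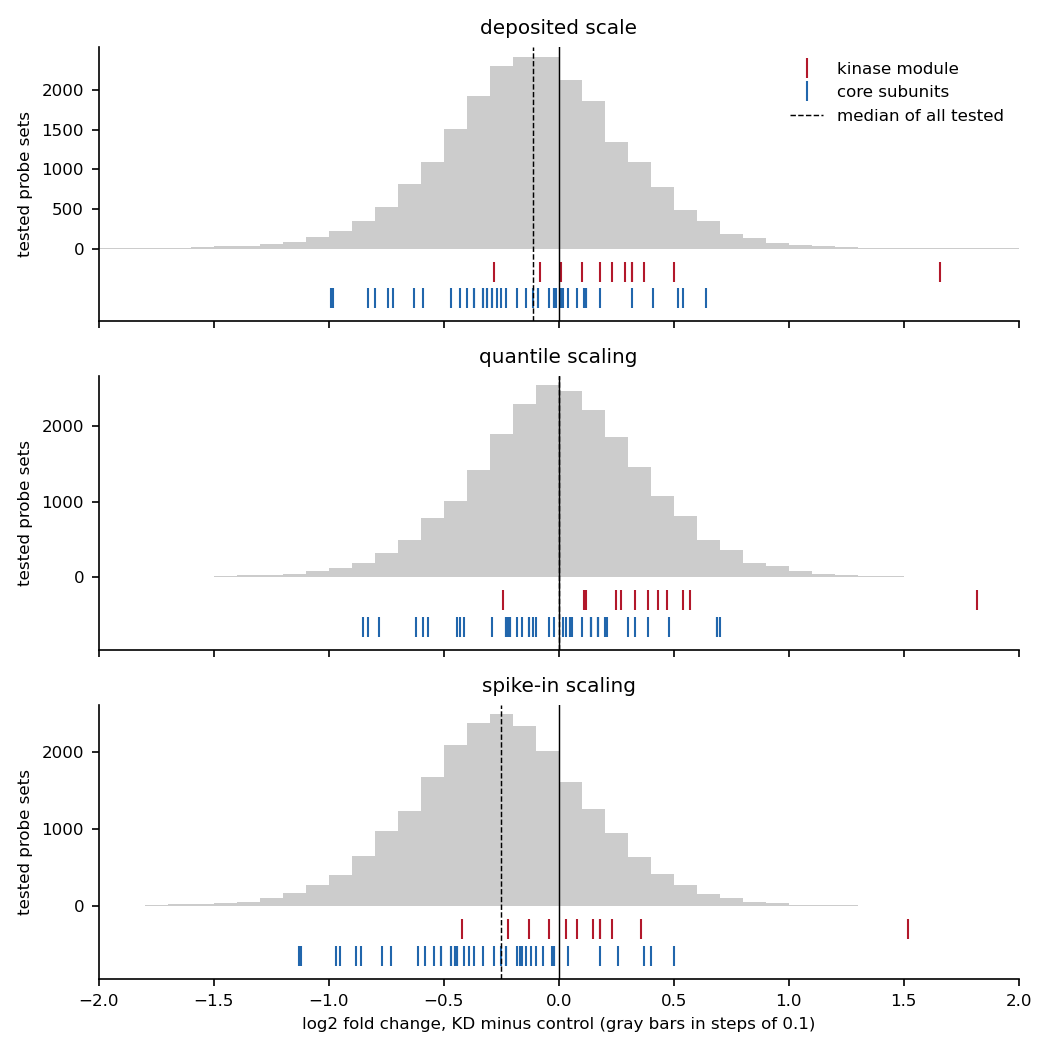
Histograms of the log2 fold change (KD minus control) of all tested probe sets on the deposited scale, with quantile scaling and with spike-in scaling, with ticks for 12 kinase module (red) and 44 core (blue) probe sets; the axis ends at -2 and 2. The median of all tested probe sets (dashed) moves between -0.25 and 0.00, and Cdk8 is the rightmost red tick in each panel.

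In the middle module, Med7 rose while its structural partners Med31 and Med21 fell. Med7 pairs with Med31 at one end and with Med21 at the other in budding yeast, where Med7 and Med21 together form a flexible hinge. Med7 read 573.4 and 623.7 in KD, against 416.1 and 410.3 in control, a log2 fold change of 0.52 ± 0.09 (limma adjusted p = 0.000355). Med31 read 501.8 and 417.3 in KD, against 812.8 and 808.3 in control, and fell by 0.80 ± 0.09 (limma adjusted p = 1.90e-05). Med21 read 338.5 and 363.9 in KD, against 500.6 and 484.2 in control, and fell by 0.47 ± 0.09 (limma adjusted p = 0.00102). None of these groups overlapped. Each of the 3 genes has 1 probe set, and each kept its call in all 15 alternatives, Med7 between 0.37 and 0.70, Med31 between -0.95 and -0.62, and Med21 between -0.61 and -0.29.

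Of the other middle subunits, Med4 fell by 0.29 ± 0.10 (294.9 and 322.4 in KD, against 391.6 and 371.7 in control, limma adjusted p = 0.0279). Med19 was lower at both probe sets, called at 1452395_at (-0.31 ± 0.11, limma adjusted p = 0.0427) and not at 1427332_at (-0.37, adjusted p = 0.0549). Spike-in scaling brought 1427332_at past the threshold (-0.51), while quantile scaling left it uncalled (-0.23). Med4 lost its call with quantile scaling (-0.11), with centring on the tested probe sets (-0.16), without a filter and without an intensity trend. It also lost it without KD replicate 1 (-0.23), control replicate 1 (-0.26) or control replicate 2 (-0.33). Med19 at 1452395_at lost it in the same settings, at -0.13 with quantile scaling, -0.18 with centring and -0.22, -0.36 and -0.25 without these arrays. Med26, which recruits elongation factors, was at -0.31 and Med10 at -0.14, and neither passed. Med9 had 2 probe sets at 0.08 and 0.02 with overlapping groups.

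Med9os, which lies on chromosome 11 at 59946892 to 59948147 beside Med9 (59948214 to 59963306) and is transcribed away from it, read 104.8 and 109.3 in KD, against 57.1 and 73.4 in control. This noncoding RNA rose by 0.61 ± 0.15 (limma adjusted p = 0.00717), while the neighbouring Med9 did not pass. Its call ended without a filter, without KD replicate 2 (0.58) and without control replicate 1 (0.46).

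Med1, the subunit that binds nuclear receptors, gave opposite calls at different probe sets. Probe set 1439408_a_at read 134.2 and 122.2 in KD, against 263.5 and 273.5 in control, and fell by 0.98 ± 0.11 (limma adjusted p = 2.00e-05). Probe set 1453972_x_at read 83.5 and 112.5 in KD, against 201 and 215.8 in control, and fell by 0.99 ± 0.14. These are 2 similar falls. By contrast, 1421907_at read 208.7 and 184 in KD, against 137.8 and 121.5 in control, and rose by 0.54 ± 0.12 (limma adjusted p = 0.00368). The dimmer 1421906_at read 59.7 and 38.4 in KD, against 23.7 and 26.6 in control, and rose by 0.64 ± 0.22. Probe set 1448708_at read 261.5 and 297.7 in KD and 281.5 and 231.5 in control, with overlapping groups and a value of 0.12. The remaining 1447450_at and 1450402_at were at 0.12 and -0.02 and were not called. Both rises lost their call without KD replicate 1 (0.40 at 1421906_at, 0.46 at 1421907_at). That of 1421906_at also ended without control replicate 1 (0.59) or 2 (0.69). Spike-in scaling (0.50), no filter and no intensity trend ended it as well. The mean of all 7 was -0.08 and did not pass, so the direction of Med1 as a gene is not settled by these arrays.

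A test of unequal change among the probe sets of a gene (limma diffSplice, F test, added after these values were seen) gave an adjusted p of 0.00617 for Med1. It called 7.59% of 5189 genes with several tested probe sets, and 3 of the 13 such Mediator genes. The call of Med1 ended without control replicate 1 (adjusted p = 0.128) and without control replicate 2 (adjusted p = 0.138).

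Med14, the scaffold, was the next of them (diffSplice adjusted p = 0.0111). Probe set 1437632_at read 303.3 and 349.2 in KD, against 464.4 and 405.8 in control, and fell by 0.40 ± 0.10 (limma adjusted p = 0.00805). Probe sets 1457167_at (64.6 and 65.2 in KD, 45.9 and 44.2 in control) and 1450229_at (69.1 and 61.5 in KD, 52.6 and 45.5 in control) were higher in both KD arrays, at 0.41 and 0.32, and did not pass. Probe set 1443597_at was at -0.43 and 1456785_at at 0.11, neither called. The mean of the 5 was 0.00. The fall at 1437632_at was not called without KD replicate 1 or control replicate 1 (-0.30 in each), or with quantile scaling (-0.22). Nor was it called without a filter or without an intensity trend. The unequal change was not called when any single array was left out (adjusted p = 0.0926 to 0.183).

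Med6, a head subunit, was the third (diffSplice adjusted p = 0.0267). Its unequal change was not called when any single array was left out. Nor was it called without a filter (diffSplice adjusted p = 0.142) or with the replicate block (diffSplice adjusted p = 0.0881). Leaving out probe sets ending in _x_at left too few of its probe sets for this test. Probe set 1458343_x_at read 100 and 93.8 in KD, against 170.2 and 170.2 in control, and fell by 0.72 ± 0.12 (limma adjusted p = 0.000502). Probe set 1424264_at read 129.5 and 131.3 in KD and 139.1 and 140 in control and was at -0.09 without passing. Among all tested members, both probe sets ending in _x_at and 5 of 8 ending in _a_at were called lower and 0 of either kind higher. Over the whole array, 26.7% of tested _x_at and 31.2% of tested _a_at probe sets were called lower, and 11.5% and 10.5% higher. The manufacturer's _x_at ending marks probes that can match other sequences and _a_at those shared by transcripts of one gene; their part in these results was not tested.

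**Figure D3:**
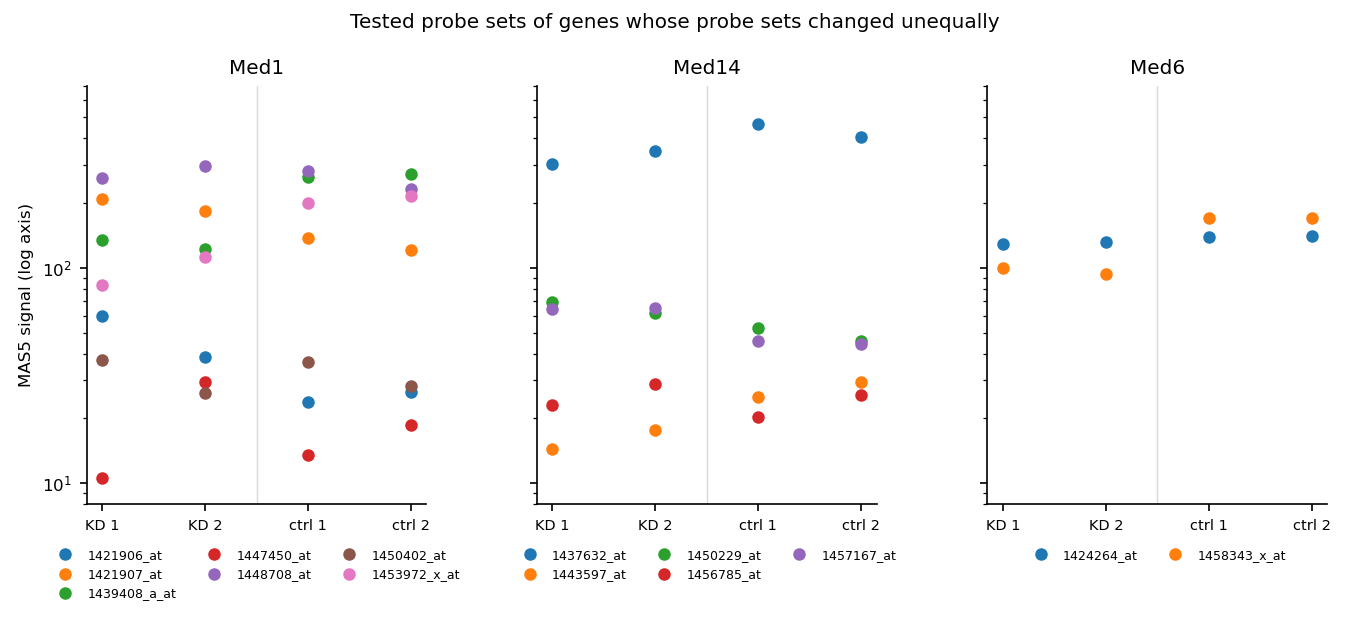
MAS5 signal (log axis) of the tested probe sets of Med1 (7), Med14 (5) and Med6 (2) on the KD and control arrays, 1 colour per probe set. Within Med1, 1439408_a_at and 1453972_x_at are lower in KD while 1421907_at and 1421906_at are higher.

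In the rest of the head little changed. Med8 fell by 0.18 ± 0.06 (1352.3 and 1380 in KD, against 1557 and 1552.3 in control, limma adjusted p = 0.0307). Its call ended with quantile scaling (-0.02), with centring on the tested probe sets (-0.05), without a filter and without an intensity trend. It also ended without any 1 of the 4 arrays (-0.20 to -0.17). Med18 (0.04) and Med20 (-0.02 and -0.01), which pair with each other in the head, did not pass and had overlapping groups. Med11 (-0.09) and Med22 (-0.04), another pair of the head, did not pass either. Med17, the central head subunit, was at -0.11. The 95% intervals of these 6 probe sets lay between -0.36 and 0.29.

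In the tail, Med24 and Med15 fell. Med24 read 167.9 and 161.7 in KD, against 298.6 and 273.8 in control, and fell by 0.74 ± 0.11 (limma adjusted p = 0.000133). Med15, which binds the sterol regulator SREBP among other activators, read 148 and 137.4 in KD, against 224.4 and 220.8 in control, and fell by 0.59 ± 0.11 (limma adjusted p = 0.00113). Both changes were called in all 15 alternatives. Med25 was at -0.29 and -0.37 at its 2 probe sets, with all KD arrays below all control arrays, and passed at neither. The mean of these 2 did pass, at -0.33 ± 0.12 (limma adjusted p = 0.0441). Spike-in scaling brought both probe sets past the threshold (-0.44 and -0.51), and quantile scaling left them uncalled (-0.18 and -0.23). At 1453197_at the brightest 25%, the replicate block and the brightest probe set of each gene also gave a call (-0.37 in each). Med23 (-0.23) and Med16 (0.18) did not pass.

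Med27 to Med30, which structures assign to the head or to the tail, were called lower at 4 of 7 tested probe sets. The share over all tested probe sets was 25.8%. Values were negative at 6 of these 7 and positive at 1, beside 8538 positive values among all 22525 tested probe sets. Med27 read 252.6 and 262.8 in KD, against 377.6 and 440.7 in control, and fell by 0.63 ± 0.10 (limma adjusted p = 0.000307). Med29 fell by 0.83 ± 0.22 at its dim probe set 1421902_at (28.2 and 16.4 in KD, against 56.8 and 46.3 in control). Its brighter probe sets were at -0.25 and -0.33 without passing, and the 3 gave a mean of -0.47 ± 0.13 (limma adjusted p = 0.0122). Med30, a subunit of animal Mediator, fell by 0.33 ± 0.07 (1059.2 and 1097.5 in KD, against 1337 and 1377.7 in control, limma adjusted p = 0.00147). Med28 was called at its bright probe set 1416508_at (-0.27 ± 0.08) and stood at 0.01 at 1448374_at. The call of Med29 ended without KD replicate 2 (-0.61) or control replicate 1 (-0.72), and so did that of Med28 (-0.14 and -0.24). Without a filter Med29 and Med28 were not called. Med28 and Med30 were not called with quantile scaling or without an intensity trend. Centring on the tested probe sets also ended the call of Med28 (-0.14).

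**Figure D4:**
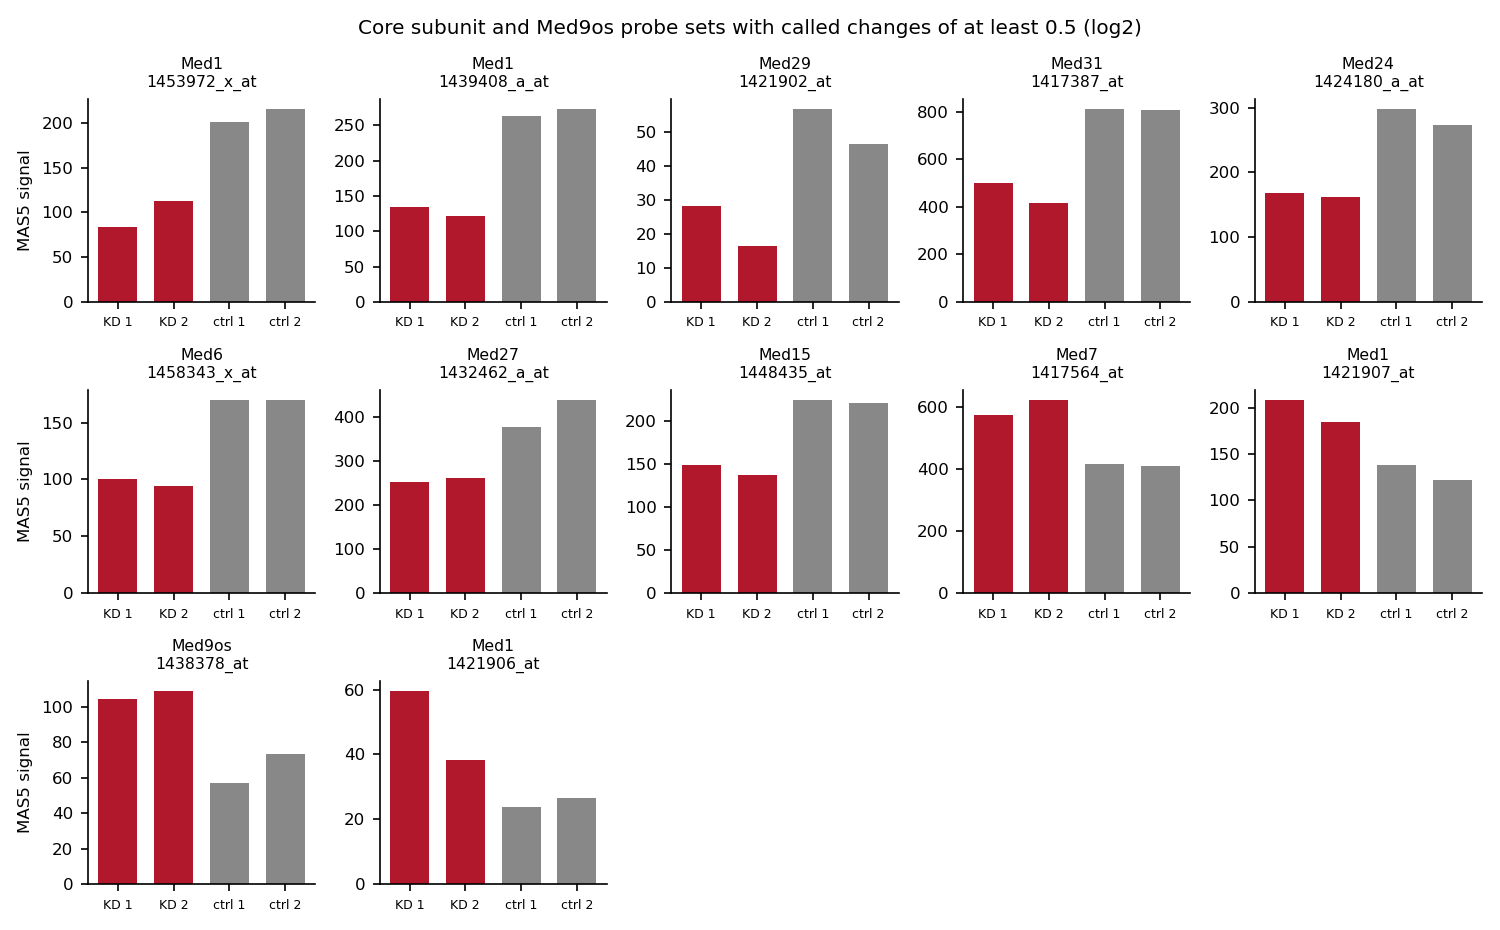
MAS5 signal (linear axes from 0) on the 2 KD (red) and 2 control (grey) arrays for the 12 probe sets outside the kinase module that were called with a log2 fold change of at least 0.5 in size, ordered by fold change. In 8 of them both KD arrays lie below both control arrays, and in the other 4 (Med7, Med9os and 2 for Med1) above.

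By gene, 14 of the 26 core genes had a probe set called lower and 2 had one called higher, Med7 and Med1, of which Med1 had both. The other 11 had none called. Counted in the same way over 11814 genes, 35.9% had a probe set called lower and 12.2% one called higher. Beside the 25.8% of all tested probe sets that were called lower, the structural divisions had lower calls at 2 of 9 tested probe sets in the head, 6 of 17 in the middle, 1 of 5 for Med14, 2 of 6 in the tail and 4 of 7 for Med27 to Med30. The higher calls of the core in these counts all lay in the middle, at Med7 and Med1. With quantile scaling Med14 was also called higher, at 1457167_at. The 8 core probe sets that were not tested, among them 3 of the 4 for Med15, and the 8 of the kinase module had mean signals of 0.9 to 15.5.

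**Figure D5:**
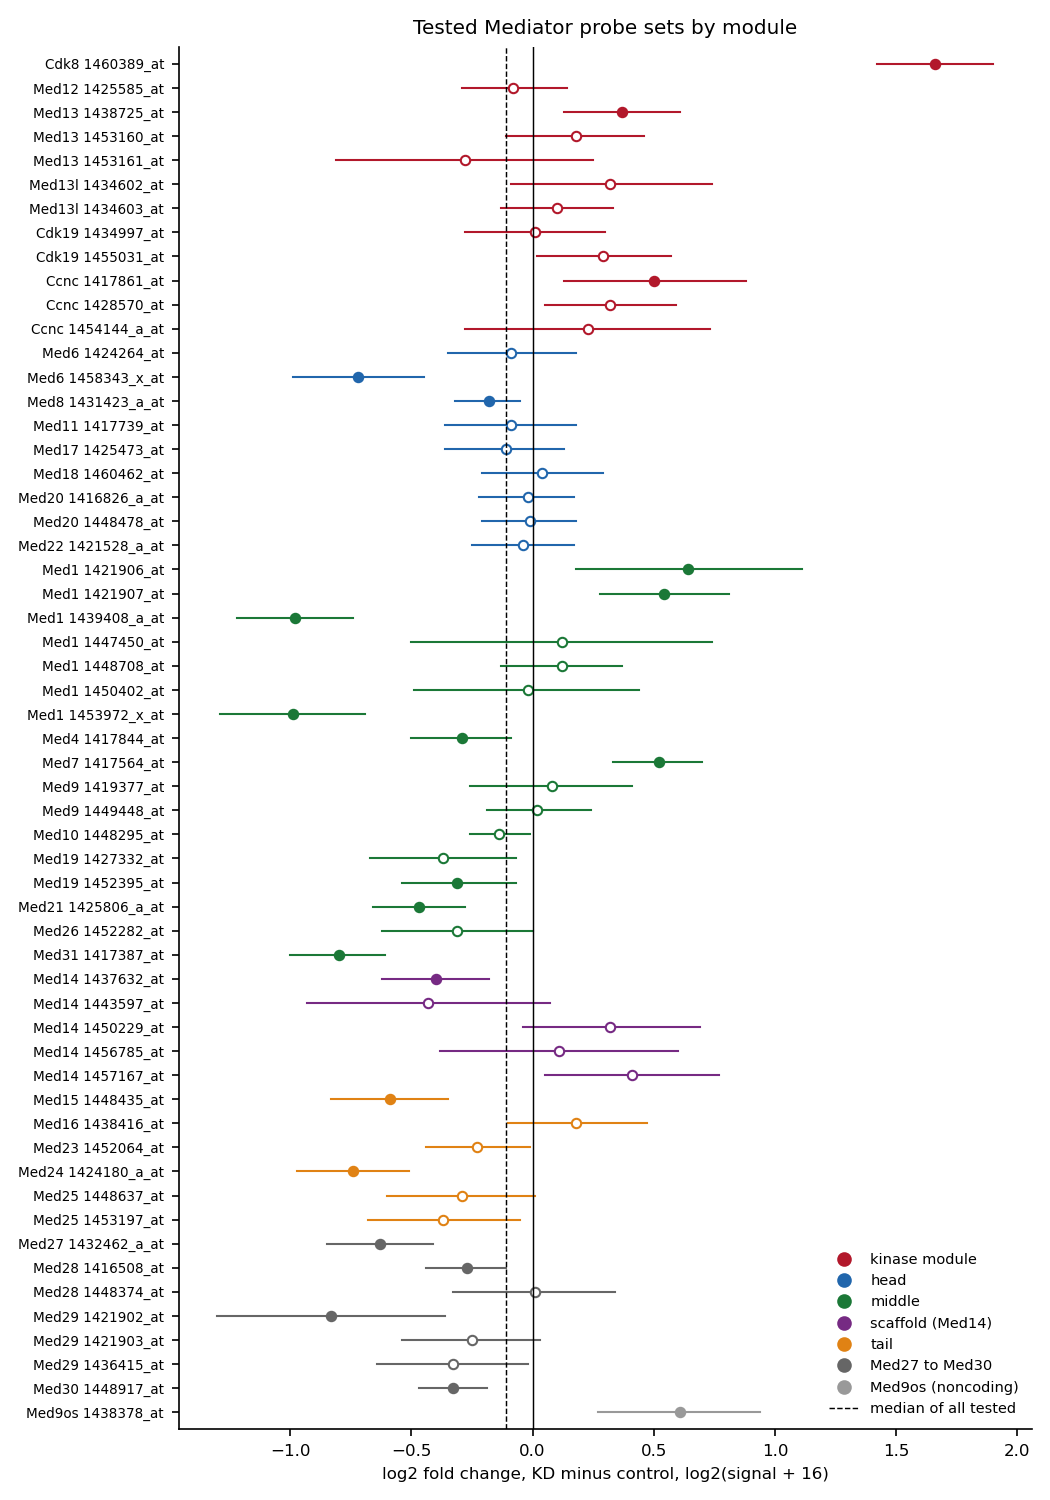
Log2 fold change (KD minus control, on the log2(signal + 16) scale) with its 95% interval for the 57 tested probe sets, grouped by module, filled where called at an adjusted p under 0.05. Cdk8 stands apart at 1.66, the other kinase module probe sets lie between -0.28 and 0.50, and the core spans -0.99 to 0.64.

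Partners of Mediator in transcription by RNA polymerase II, a list of 40 genes with the kinases of the polymerase tail, elongation factors, cohesin and its loader, and Fbxw7, which marks Med13 for degradation, moved in both directions. Each gene was taken at its brightest tested probe set, and 36 had one. Of these 6 rose, 13 fell and 17 did not pass, or 16.7% and 36.1%, beside 8.95% and 32.9% of all genes taken the same way. The median was -0.10, and -0.17 over all genes. The rises with the smallest p were those of Hexim1 (0.40 ± 0.09), the inhibitor of the elongation kinase P-TEFb, of Ccnt1 (0.47 ± 0.11), a cyclin of that kinase, and of the cohesin subunit Rad21 (0.29 ± 0.07). Supt5 (-0.54 ± 0.06), a subunit of the pausing and elongation factor DSIF, and Ell (-1.03 ± 0.12) and Zc3h8 (-0.84 ± 0.10), both of elongation complexes, had the smallest p among the falls. Fbxw7 read 114.5 and 117.8 in KD and 116.4 and 107.9 in control and did not pass (0.05, 95% interval -0.24 to 0.33). Polr2a, the largest polymerase subunit, which Cdk8 can phosphorylate, read 390.4 and 364.4 in KD, against 519.8 and 470.2 in control, and fell by 0.38 ± 0.09 (limma adjusted p = 0.00555).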

How the data were processed

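The authors deposited intensities: each array has 1 linear-scale signal for every probe set. These came from MAS5, per the submitters' processing notes. Its version and scaling target are not stated there. Per the labels' protocols, cytoplasmic RNA was the supernatant after lysis in CSK buffer, and biotinylated cRNA was made from poly(A)+ RNA.

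Of 45101 probe sets 64 were controls. The platform annotation gave 1 symbol to 34945 of the others, several to 932 and none to 9160. All 34 member genes matched the RefSeq table (GRCm38.p6) by Entrez identifier. Values were taken as log2(signal + 16) without rescaling, and probe sets with a mean signal at or above the median (16.9) entered a limma fit (version 3.58.1, R 4.3.3, lmFit and eBayes with an intensity trend, two-sided, Benjamini-Hochberg adjustment at 0.05, 13.6 total degrees of freedom). Unequal change among probe sets was tested with limma's diffSplice. Both steps were run on simulated data with independent noise and no shift between arrays, which checks the code and not the calls. Labels do not say whether replicates came from separate transfections, so p-values reflect only how far these arrays vary, which may be technical. Log2 profiles correlated at 0.9879 between KD, 0.9871 between control and 0.978 to 0.9789 between groups. Same-numbered arrays did not deviate together (r = 0.0071), so the number was not used as a pair.

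Members, lists and tests were chosen with earlier results of these data known. The named genes are all members, with values by array for kinase module probe sets and for core probe sets called with a log2 fold change of at least 0.5, and up to 3 rises and 3 falls of the partner list by p. Fbxw7, Polr2a and further core values were added after they were seen. Alternatives changed the scale (quantile, centring on tested probe sets, 9 spike-in probe sets), the pseudocount (1 or 64), the filter (none, or the brightest 25%) and the fit (replicate block, or no intensity trend). Others left out each array or the probe sets ending in _x_at or _s_at, or took 1 value per gene. Figures were drawn with matplotlib 3.10.9.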

Additional observations from a re-analysis of the deposited data

How the results depend on the processing

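Of the 22 member probe sets that were called, 0 changed direction in any alternative that measured them, and 10 kept their call in all of these: Cdk8, Med7, Med31, Med21, Med24, Med15, Med27, Med6 (1458343_x_at) and Med1 at 1439408_a_at and 1453972_x_at. The replicate block called 2399 probe sets higher and 6123 lower, with 3 kinase module and 3 core probe sets higher and 17 core probe sets lower. Quantile scaling called 3823 probe sets higher and 3758 lower, with 6 kinase module and 5 core probe sets higher and 9 core probe sets lower. Centring on the tested probe sets gave 3773 higher and 3985 lower, with 5 kinase module probe sets higher. Spike-in scaling gave 1042 higher and 8008 lower, with 1 kinase module probe set higher and 23 core probe sets lower. Without a filter 1241 of 45037 probe sets were higher and 4045 lower. Here 1 of 20 kinase module probe sets was higher and 9 of 52 core probe sets were lower. Without an intensity trend there were 1354 higher and 3778 lower, with 9 core probe sets lower. With 1 value per gene, and so fewer features, 1162 genes were higher and 4163 lower by the brightest probe set. By the mean of probe sets 1078 were higher and 3716 lower. Of 6 kinase module genes, 3 were called higher by the brightest probe set and 1 by the mean. Of 26 core genes, 1 was called higher and 12 lower in each of these settings. Leaving out 1 array in turn gave 1200 to 1976 higher and 4297 to 5265 lower probe sets. The same settings gave 1 to 2 kinase module and 1 to 3 core probe sets higher, and 9 to 15 core probe sets lower. Without KD replicate 1 there was 1 core probe set higher, and without control replicate 1 there were 9 lower. The kinase module had 0 lower calls in every alternative. Dim probe sets carry the widest errors, and the cause of each lost call was not tested.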
